A study of Homo sapiens with 15 samples.

Results

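The transcripts described are those of 10 small nucleolar RNA (snoRNA) host genes, namely GAS5, SNHG1, SNHG5, SNHG6, SNHG7, SNHG8, SNHG12, SNHG15, SNHG16 and EPB41L4A-AS1. They were chosen by name, as a list of noncoding genes whose introns carry snoRNAs, out of 57773 genes counted in each of 15 libraries. All 10 were found by Ensembl identifier. All 10 also passed the filter on low counts that left 13085 genes to test, and their lowest count in any library was 128, for EPB41L4A-AS1.

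The RNA came from femur marrow of SCID-beige mice that had been injected intravenously with MM.1S cells, a human multiple myeloma line that here carried GFP and luciferase. Marrow was taken at limb paralysis and frozen as a pellet of unsorted cells, so each library holds the human tumour with some mouse marrow. Every group carried the same cells in the same strain, and the groups differed in what was injected. They were a vehicle group labelled PBS (the protocol names saline), bortezomib alone at 0.25 mg/kg, elesclomol alone at 25 mg/kg, the combination of both at these doses, and a delayed combination in which elesclomol began 14 days after the mice entered the study. Bortezomib inhibits the proteasome, and elesclomol carries copper into mitochondria. The labels give 5 mice treated per group, of which 3 libraries per group are analysed, and the time on treatment differed between mice because it ended at paralysis. The labels do not say in words that the 3 libraries came from 3 separate mice, so the p-values measure the spread between these libraries. In such bulk pellets, fewer cells of a type and less RNA per cell cannot be told apart.

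Host genes of this class are transcribed and spliced like other RNA polymerase II genes, and the product that the cell keeps is often in the introns. Box C/D snoRNAs guide methylation of ribosomal RNA and box H/ACA snoRNAs guide its pseudouridylation. The spliced exons usually encode no conserved protein. Many of these transcripts start with the oligopyrimidine tract (TOP) of ribosomal protein genes, and many are degraded on ribosomes by nonsense-mediated decay, so that blocked translation lets the spliced RNA accumulate. GAS5 is the best known, named for its accumulation in growth-arrested cells.

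The annotated start sites were searched for such a tract at or near them. Windows of RefSeq's promoter table (GRCh38.p14, a different build from the one the reads were counted on) were used for 8 of the genes. SNHG6 and SNHG15 had no window in this search, so their starts were not examined. A tract was searched on the transcribed strand as a C followed by at least 4 pyrimidines, beginning no more than 5 bases from the annotated start. It was found in 5 of the 8 genes. The same search found it in 21.1% of the 35116 windows of the whole table. The 5 windows printed here run from 25 bases before the start to 25 after it, written 5′ to 3′ with the tract in capitals. They are SNHG5 at chr6:85678709-85678758 on the minus strand, SNHG7 at chr9:136728160-136728209 on the minus strand, SNHG8 at chr4:118278737-118278786 on the plus strand, SNHG12 at chr1:28581849-28581898 on the minus strand and SNHG16 at chr17:76557739-76557788 on the plus strand.
SNHG5: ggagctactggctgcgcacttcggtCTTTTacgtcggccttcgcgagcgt
SNHG7: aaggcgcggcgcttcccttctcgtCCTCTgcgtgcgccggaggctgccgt
SNHG8: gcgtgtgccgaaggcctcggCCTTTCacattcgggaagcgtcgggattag
SNHG12: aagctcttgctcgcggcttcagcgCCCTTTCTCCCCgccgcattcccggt
SNHG16: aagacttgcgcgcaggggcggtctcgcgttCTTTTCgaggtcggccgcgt
The tract was longest in SNHG12, with 12 bases, and had 5 in SNHG5 and SNHG7 and 6 in SNHG8 and SNHG16. It began at the annotated start base in SNHG5 and 1 base before it in SNHG7 and SNHG12. In SNHG8 it began 5 bases before the start and so lay mostly upstream. In SNHG16 it began 5 bases after the start, so the annotated transcript does not begin with it. The RefSeq windows of GAS5, SNHG1 and EPB41L4A-AS1 held none at that place. For GAS5 the annotated start depends on the isoform, since 6 of its 29 transcripts in GENCODE 29 begin with such a tract. The first bases of one of them, GAS5-210, are printed with the tract of 6 bases in capitals.
GAS5: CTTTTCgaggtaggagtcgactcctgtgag
The E-box letters CACGTG, which read the same on both strands, occurred in the 300-base window of SNHG7 alone among the 8, and in 7.26% of all windows. A match in these letters describes the sequence and was not tested as a binding site.

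Compared per length, the host genes spanned the range from moderately to highly expressed genes. Levels are in CPM, the count of a gene as a share of its library, on library sizes scaled by the trimmed mean of M-values, divided by the length of all exons of the gene in kilobases. SNHG8 stood at 77.9 ± 9.49 CPM per kilobase and GAS5 at 67.1 ± 9.28 (SD over the 15 libraries), and these overlap within 1 SD. SNHG6 followed at 53.0 ± 4.42 and SNHG1 at 48.6 ± 6.15, again within 1 SD of each other. Well below them, SNHG5 stood at 17.4 ± 1.78, SNHG16 at 16.2 ± 2.32 and SNHG12 at 14.0 ± 1.65, each within 1 SD of its neighbour. SNHG15 at 9.95 ± 1.14, SNHG7 at 8.70 ± 1.6 and EPB41L4A-AS1 at 8.0 ± 0.892 were lowest, each within 1 SD of its neighbour. Such overlap of SDs does not settle the order, since the genes were not compared within each library. These levels lay between the percentiles 68.6 (EPB41L4A-AS1) and 98.0 (SNHG8) of 12794 tested genes with a known length. The order depends on the length used. With the longest transcript in place of all exons, GAS5 came first at 143 CPM per kilobase, ahead of SNHG8 at 107 and SNHG6 at 102, and SNHG12 ranked above SNHG16 and SNHG7 above SNHG15.

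The libraries held 4500326 to 13161087 counts, and the delayed combination was the most deeply sequenced group. The myeloma label was checked against 13 markers of the line and of plasma cells, of which 13 were tested and 0 were at 0 in any library. Their summed level was 16358 to 19926 CPM over the 15 libraries. Of the host marker lists, the 9 erythroid genes summed to 342 CPM in the library elesclomol 1 against 11.3 to 37.6 in the other libraries, and the 9 granulocyte genes to 138 CPM against 6.11 to 30.7. The other host lists did not set that library apart to this degree. Elesclomol 1 did have the highest endothelial sum, 11.4 CPM against 0.140 to 5.67 elsewhere. Its stromal sum was 201 CPM, where the 15 libraries ran from 104 to 237. Its macrophage sum was 7.47 CPM, in a range of 2.66 to 14.9. Of the 9 erythroid genes, 2 were at 0 in every library. A second feature was the GC content of the counted genes. In bortezomib 1, combination 1 and delayed combination 2, the correlation across genes between GC content and the deviation from the mean of all libraries was 0.315 to 0.509, against -0.348 to 0.157 in the other 12. These libraries are called GC-rich below. All 3 PBS libraries stood at the low end, at -0.293, -0.348 and -0.328. The treated groups were spread, with bortezomib from -0.310 to 0.509 and elesclomol from -0.272 to 0.157. The combination ran from -0.253 to 0.494 and the delayed combination from -0.132 to 0.315. Comparisons with PBS thus also set libraries low on this trend against mixed ones, with or without the GC-rich libraries.

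None of the 10 host genes passed the test in any of 10 comparisons. Differences were tested by quasi-likelihood in edgeR, and p was adjusted by Benjamini and Hochberg over all 13085 genes at a threshold of 0.05. The smallest adjusted p of any of them was 0.292. The background was almost as low. The share of all genes past the threshold was 0.0688% for elesclomol against PBS, which is 9 genes, and 0.00764% for the interaction of the drugs, which is 1 gene. It was 0% for bortezomib, combination and delayed combination against PBS, 0% for combination and delayed combination against bortezomib, 0% for combination against elesclomol and for delayed combination against combination, and 0% for any difference among the 5 groups. DESeq2 also called 0 of the 10 in every comparison it was run on, whereas limma voom called 1 in combination against PBS (SNHG1) and 1 in the interaction (SNHG12). That tool also called far more of all genes, 10.7% in the first of these comparisons and 2.37% in the second, so 1 of 10 is close to its background in the first. A p above the threshold does not show equal levels. Against PBS, the 95% intervals of the 40 fitted fold changes reached at their widest from 0.675-fold to 1.69-fold.

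**Figure D1:**
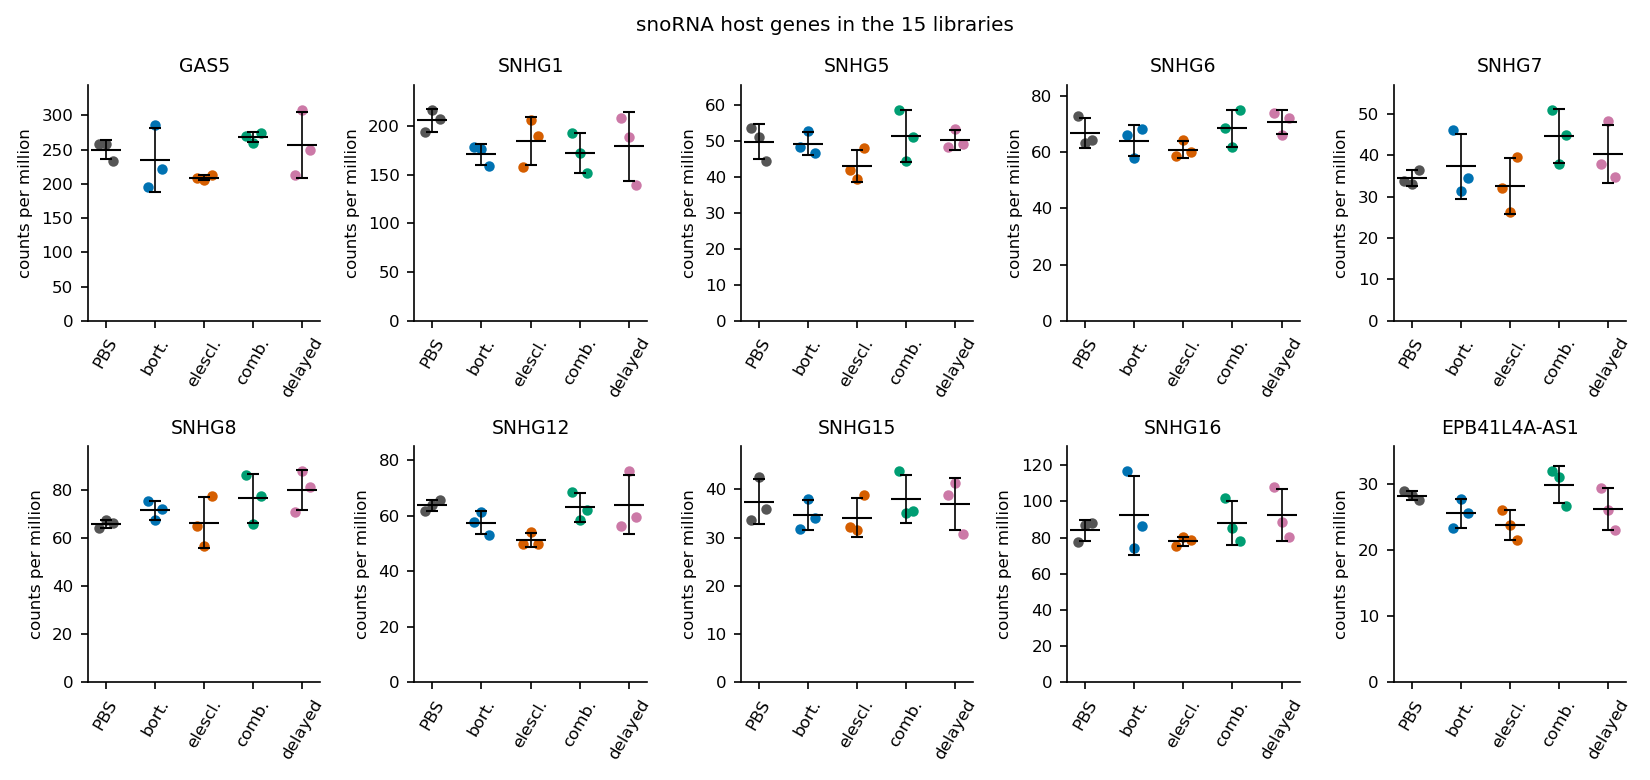
CPM (y axis, from 0) of each of the 10 host genes in the 5 groups (x axis); each point is 1 library, the long bar is the group mean and the whiskers are 1 SD (n = 3). The elesclomol group has the lowest mean in 8 of the 10 panels, and the spread within groups is often as wide as the distance between them.

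For the host genes, the ratio of the highest to the lowest library was between 1.29 for SNHG6 and 1.95 for SNHG7. The matching ratio over all genes was not computed. The ratio of the highest to the lowest group mean was between 1.11 for SNHG15 and 1.37 for SNHG7. Of the 5 groups, elesclomol had the lowest mean for 8 of the 10 genes, PBS for SNHG8 and bortezomib for SNHG1. The combination had the highest mean for 5 genes and the delayed combination for 3. Summed over the 10 genes, the level was 747 to 816 CPM in the elesclomol libraries, 869 to 911 in PBS, 801 to 873 in bortezomib, 852 to 973 in the combination and 820 to 983 in the delayed combination. Each elesclomol library thus lay below each PBS, combination and delayed combination library in this sum. The gap to the delayed combination was narrow, at 816 against 820 CPM. GAS5 and SNHG1 weigh most in the sum, with means of 244 and 183 CPM over the 15 libraries. As the members were chosen with results of these data known, the sum was not tested.

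GAS5, whose introns carry a series of box C/D snoRNAs and whose spliced RNA can bind the glucocorticoid receptor, had 3 closely spaced elesclomol libraries. Its level was 258, 258 and 233 CPM in the PBS libraries, and 209, 205 and 212 CPM with elesclomol. It was 270, 260 and 275 CPM with the combination. The 3 elesclomol libraries thus lay below all PBS libraries and the 3 combination libraries above them. The other groups were wide, with 195, 286 and 222 CPM for bortezomib and 212, 308 and 249 CPM for the delayed combination, and both overlapped PBS and combination. The fitted log2 fold change was -0.26 ± 0.14 (SE) for elesclomol against PBS and 0.10 ± 0.14 for the combination against PBS (edgeR adjusted p = 0.686 and 0.741). For the combination against elesclomol it was 0.36 ± 0.14 (edgeR adjusted p = 0.323). The lowest and the highest GAS5 level of the 15 both stood in GC-rich libraries, bortezomib 1 and delayed combination 2.

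SNHG12, host of the box C/D snoRNA SNORD99 and of several box H/ACA snoRNAs, had the smallest p of the 10 for any difference among the 5 groups (edgeR adjusted p = 0.543). It stood at 61.6, 63.7 and 65.8 CPM in PBS and at 49.8, 54.2 and 49.9 CPM with elesclomol, without overlap. With bortezomib it was 57.9, 61.2 and 53.1 CPM, also below each PBS library. The combination gave 68.6, 58.5 and 62.0 CPM, around the PBS values and above each elesclomol library, and the delayed combination 56.2, 75.9 and 59.7 CPM. The log2 fold change for elesclomol against PBS was -0.31 ± 0.11, and its 95% interval ran from -0.56 to -0.07 (edgeR adjusted p = 0.511). For bortezomib against PBS it was -0.15 ± 0.11 and for the combination against elesclomol 0.30 ± 0.11 (edgeR adjusted p = 0.583 and 0.318). After a correction for GC and length, the combination against PBS moved from -0.02 to -0.18. Bortezomib against PBS was then -0.31, elesclomol against PBS -0.39 and the combination against elesclomol 0.21. The place of the combination near PBS thus depends on this correction.

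EPB41L4A-AS1, host of the box H/ACA snoRNA SNORA13, also had its lowest group mean with elesclomol and its highest with the combination. It was 28.9, 28.3 and 27.5 CPM in PBS and 26.1, 23.8 and 21.5 CPM with elesclomol. The combination libraries had 31.9, 31.1 and 26.7 CPM, so that all 3 stood above all 3 elesclomol libraries, while they overlapped PBS. Bortezomib, with 23.4, 27.7 and 25.7 CPM, had 1 library inside the PBS range, and the delayed combination, with 29.5, 26.1 and 23.1 CPM, spread across both. The log2 fold change was -0.25 ± 0.12 for elesclomol against PBS and 0.33 ± 0.12 for the combination against elesclomol (edgeR adjusted p = 0.643 and 0.292). The gene lies opposite EPB41L4A, with which it shares 1659 exon bases in GENCODE 29. That gene was counted at a mean of 7.49 CPM, and the strand setting of the counting is not given in the sources used here, so reads of the pair may not be separated. The same limit applies to SNHG16, SNHG7 and SNHG6, which share 1639, 1094 and 365 exon bases with genes on the opposite strand. For GAS5 and SNHG12 the overlap was 42 and 8 bases.

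SNHG7 and SNHG8, both hosts of box H/ACA snoRNAs, were the most alike pair. SNHG7 stood at 33.9, 32.9 and 36.5 CPM in PBS and at 50.9, 37.9 and 44.9 CPM with the combination, without overlap. With elesclomol it was 32.0, 26.2 and 39.6 CPM, with bortezomib 46.1, 31.4 and 34.4 CPM, and with the delayed combination 37.9, 48.1 and 34.7 CPM. Its log2 fold change for the combination against PBS was 0.37 ± 0.18 (edgeR adjusted p = 0.373). The 3 highest SNHG7 levels of the 15 were those of the GC-rich libraries combination 1, delayed combination 2 and bortezomib 1. With 65.9% GC in its longest transcript, SNHG7 is also the most GC-rich of the 10, the others having 42.0% to 56.6%. Without those 3 libraries the combination against PBS gave a log2 fold change of 0.27, and after a correction for GC and length 0.16.

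SNHG8 was 64.1, 67.2 and 65.9 CPM in PBS, the tightest group of that gene, and 70.8, 87.6 and 81.1 CPM in the delayed combination, all of them higher. Bortezomib gave 75.2, 67.2 and 71.8 CPM, elesclomol 64.7, 56.4 and 77.4 CPM and the combination 86.2, 65.8 and 77.2 CPM, and each of these groups overlapped PBS. The log2 fold change for the delayed combination against PBS was 0.28 ± 0.13 (edgeR adjusted p = 0.447). It was 0.22 without the GC-rich libraries and 0.18 after the correction.

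**Figure D2:**
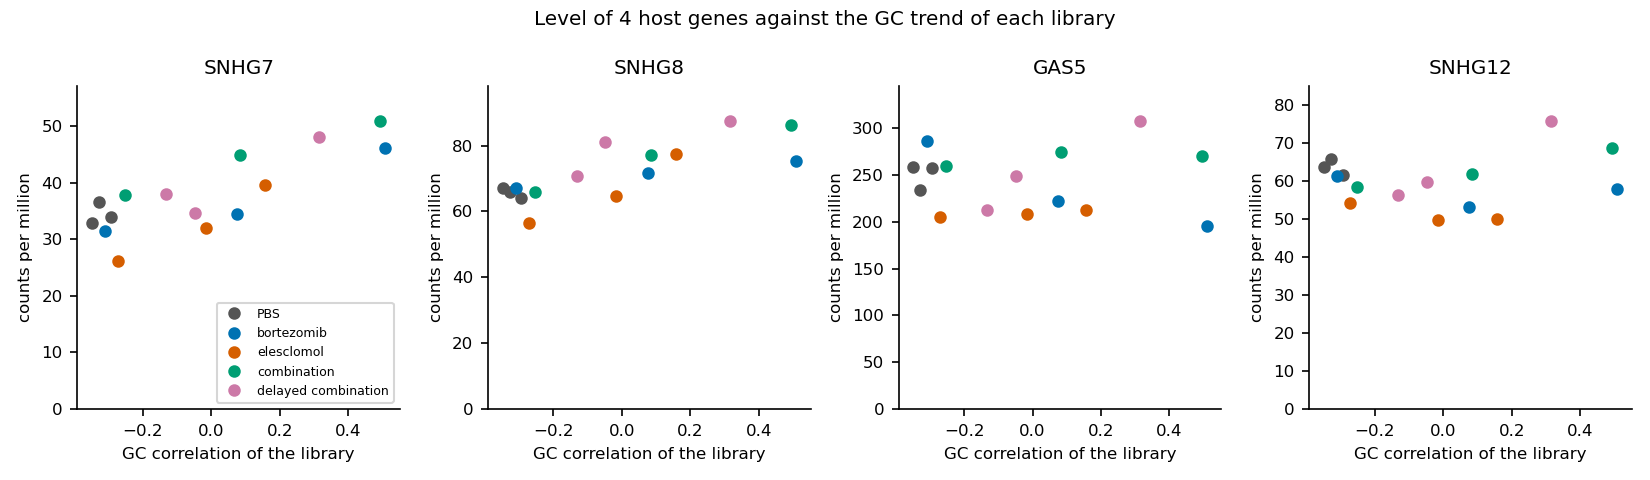
Level of SNHG7, SNHG8, GAS5 and SNHG12 in CPM (y axis, from 0) against the GC correlation of each library (x axis, no unit), that is the correlation across genes between GC content and the deviation from the mean library; each point is 1 library, coloured by group. SNHG7 is highest in the 3 libraries at 0.315 to 0.509, while GAS5 has both its lowest and its highest level there.

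SNHG1, host of a cluster of box C/D snoRNAs, had a different order of groups. Its PBS libraries had 194, 217 and 207 CPM, and bortezomib, with 178, 176 and 159 CPM, lay below all of them. The combination was also below, with 192, 172 and 152 CPM. Elesclomol alone, with 158, 206 and 190 CPM, and the delayed combination, with 208, 189 and 140 CPM, overlapped PBS. The log2 fold change against PBS was -0.27 ± 0.14 for bortezomib and -0.26 ± 0.14 for the combination (edgeR adjusted p = 0.488 and 0.420). Under limma voom with quality weights the second was -0.39 ± 0.11 (adjusted p = 0.0346), a fit in which 10.7% of all genes passed. Of the 10, SNHG1 alone had a fitted level below that of elesclomol in the combination, at a log2 fold change of -0.10 ± 0.14.

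The other 4 genes had no comparison with PBS in which the groups did not overlap. SNHG5, first found at a translocation breakpoint in lymphoma, was 44.3 to 53.7 CPM in PBS, 39.5 to 48.0 CPM with elesclomol and 44.3 to 58.7 CPM with the combination. SNHG6, which carries SNORD87, was 63.3 to 72.7 CPM in PBS, 58.5 to 64.1 CPM with elesclomol and 65.9 to 73.9 CPM in the delayed combination. SNHG15, known as a short-lived RNA, ranged from 30.8 to 43.7 CPM over all 15 libraries and had the smallest ratio between group means. SNHG16, host of the SNORD1 family, was 77.4 to 87.9 CPM in PBS. Its highest level was 117 CPM in bortezomib 1, a GC-rich library, and the other bortezomib libraries had 74.4 and 86.3 CPM. Among these 4 genes the widest group was that of SNHG16 with bortezomib, at 92.4 ± 21.8 CPM (SD, n = 3).

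Taking the 10 genes as a list, elesclomol against PBS had a median log2 fold change of -0.15, with 1 gene above 0 (SNHG8) and 9 below. The median of all genes tested was 0.00. GAS5, SNHG12 and EPB41L4A-AS1, 3 of the 10, did not overlap between these groups, as did 19.8% of all genes in either direction. At an unadjusted edgeR p under 0.05, 1 of the 10 was counted, SNHG12, against 8.07% of all genes. Without elesclomol 1, the library rich in erythroid and granulocyte markers, the median was -0.10, and 2 of the 10 were under that unadjusted p against 5.27% of all genes.

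Bortezomib against PBS gave a median of -0.08, with 3 of the 10 above 0, against a median of 0.02 over all genes. It was between -0.12 (without bortezomib 2) and -0.03 (without PBS 1) when 1 library was left out. SNHG1 and SNHG12 did not overlap, as did 20.2% of all genes. Of the 10, 0 had an unadjusted edgeR p under 0.05, against 10.6% of all genes. The combination against PBS gave a median of 0.06 with 8 of 10 above 0. Without the GC-rich libraries it was 0.00 with 5 of 10 above 0, without combination 1 it was -0.01 with 5 of 10 above 0, and without PBS 3 it was 0.02. GAS5, SNHG7 and SNHG1 did not overlap between these groups, the last of them being lower with the combination, as did 22.2% of all genes, and 0 of the 10 had an unadjusted p under 0.05 where 13.6% of all genes did. The delayed combination against PBS gave a median of 0.03 with 7 of 10 above 0. That direction rested on delayed combination 2, without which the median was -0.07 with 4 of 10 above 0, and without the GC-rich libraries it was -0.05 with 4 of 10 above 0. In the fit of all libraries SNHG8 alone did not overlap and was the 1 gene under the unadjusted p, where 27.5% of all genes did not overlap and 11.1% were under it. At most 3 of the 10 genes were without overlap in any of these comparisons, and at most 1 was under the unadjusted p. The 4 comparisons share their 3 PBS libraries. For a pair of PBS libraries, the chi-square of their counts over genes was 2.25 to 3.24 per degree of freedom. Within the treated groups it was 5.64 to 27.3. The PBS libraries were thus closer to each other than those of any treated group, and non-overlap with PBS is to be read with that in view.

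**Figure D3:**
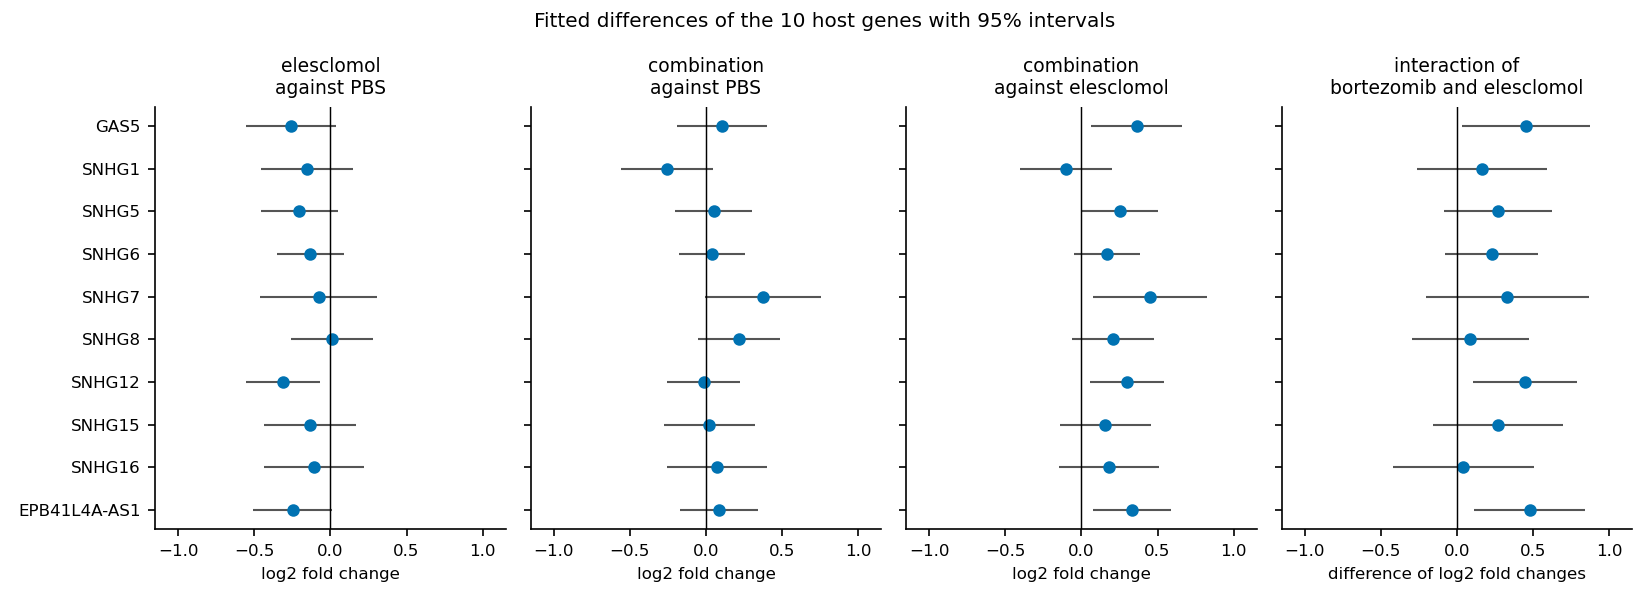
Fitted log2 fold changes (x axis; in the last panel the difference of 2 log2 fold changes) of the 10 host genes (y axis) in 4 comparisons, with 95% intervals from edgeR's quasi-likelihood fit over 15 libraries. With elesclomol against PBS 9 of 10 points lie below 0, with combination against elesclomol 9 of 10 lie above 0, and none passed the adjusted threshold of 0.05.

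The comparison with the most host genes under an unadjusted p of 0.05 was the combination against elesclomol, which asks what adding bortezomib to elesclomol changed. The median log2 fold change of the 10 was 0.23, with 9 above 0, while the median of all genes was -0.01. An unadjusted edgeR p under 0.05 was reached by 5 of the 10, GAS5, SNHG5, SNHG7, SNHG12 and EPB41L4A-AS1, against 12.2% of all genes, with adjusted p between 0.292 and 0.399. GAS5, SNHG12 and EPB41L4A-AS1 did not overlap between the groups, as did 16.0% of all genes. SNHG7 had the largest fitted value, at 0.45 ± 0.18. The count rested in part on single libraries. It was 1 of 10 without combination 1, against 8.58% of all genes in that fit, and 2 of 10 without elesclomol 1, against 9.16%. It was 3 of 10 without combination 3, against 8.29%, and 3 of 10 without elesclomol 2, against 9.03%. The medians without combination 1 and without elesclomol 1 were 0.16 and 0.21. Without the 3 GC-rich libraries the median was 0.16, with 9 of 10 above 0. GAS5 then stood at 0.36, EPB41L4A-AS1 at 0.28, SNHG7 at 0.34, SNHG12 at 0.23 and SNHG5 at 0.15, the last of these down from 0.25. Marker genes of other kinds also had medians away from 0 in this comparison, in which 0% of all genes passed. The 13 myeloma markers had a median log2 fold change of -0.11, with 10 below 0 and 6 under the unadjusted p. The 2 tested erythroid genes had -3.08 and the 5 tested granulocyte genes -1.77, with all of both lists below 0. With the level of host marker RNA as a covariate the median of the 10 host genes was 0.25 and 3 of them were under the unadjusted p, against 11.9% of all genes. The part of the myeloma markers' difference was not tested.

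The interaction asks whether elesclomol acted differently on a gene with bortezomib than without it. It is the log2 fold change of the combination against bortezomib minus that of elesclomol against PBS. All 10 host genes had a value above 0, with a median of 0.27, whereas 48.6% of all genes were above 0 and their median was -0.01. EPB41L4A-AS1 had 0.48 ± 0.17, GAS5 0.45 ± 0.20 and SNHG12 0.45 ± 0.16. These 3 had an unadjusted edgeR p under 0.05, against 8.79% of all genes, and their adjusted p was 0.465 to 0.530. Under limma voom SNHG12 passed, at 0.50 ± 0.13 (adjusted p = 0.0478), as did 2.37% of all genes. The lowest value was that of SNHG16, at 0.04 ± 0.22. Without the GC-rich libraries all 10 were still above 0, with a median of 0.20 and 1 unadjusted p under 0.05, against 10.8% of all genes. With the level of host marker RNA as a covariate, 8 of 10 were above 0 with a median of 0.24. The 10 values share the same 12 libraries, and some pairs of the genes vary together. So 10 of 10 is not 10 independent results.

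The remaining comparisons showed smaller values. The combination against bortezomib gave a median of 0.12 with 9 of 10 above 0, and without combination 1 a median of 0.05 with 7 of 10 above 0. EPB41L4A-AS1 had the smallest p, with a log2 fold change of 0.23 ± 0.12 (edgeR adjusted p = 0.999). The delayed combination against bortezomib gave a median of 0.10, also with 9 of 10 above 0, and without delayed combination 2 a median of 0.02 with 7 of 10 above 0. The delayed combination against the combination, which sets a late start of elesclomol against an early one, gave a median of -0.01 with 5 of 10 above 0, and from -0.10 (without delayed combination 2) to 0.07 (without combination 1) when 1 library was left out. In these 3 comparisons 0 of the 10 had an unadjusted edgeR p under 0.05, against 4.23%, 3.52% and 2.63% of all genes in that order. In the same order 8.19%, 6.69% and 7.59% of all genes did not overlap between the groups, and 0 of the 10 did so.

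**Figure D4:**
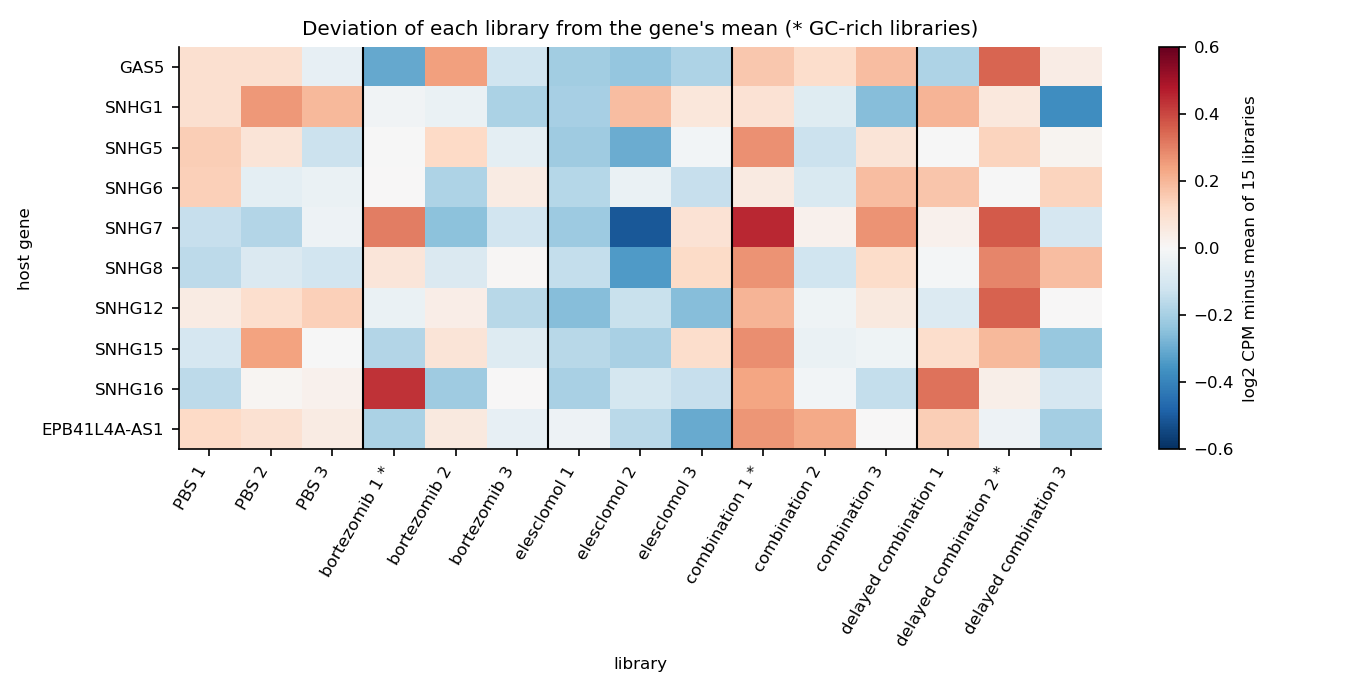
Deviation of each library (columns, by group, x axis) from the mean of the 15 libraries for each host gene (rows), on the log2 CPM scale from blue (lower) to red (higher); stars mark the 3 GC-rich libraries. The elesclomol columns are mostly blue, and the darkest red cell is SNHG7 in combination 1.

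The genes did not move as 1 block across the libraries. Of the 45 pairs, 38 had a positive Pearson correlation of log2 CPM over the 15 libraries, with a median of 0.33. These correlations are descriptions, since the points share library depth, GC trend and treatment group. The most alike pair was SNHG7 and SNHG8 at 0.84, followed by GAS5 and SNHG12 at 0.78 and by SNHG5 and SNHG8 at 0.67. SNHG1 and SNHG8 had the lowest value, at -0.30. After the group means were taken out, SNHG7 and SNHG8 still had 0.82, and the lowest value was that of GAS5 and SNHG16, at -0.70. Within groups 29 of the 45 pairs were positive, with a median of 0.15.

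Genes outside the list were ranked by how closely their level followed the host genes. Among 8981 genes with a mean log2 CPM of at least 3, the mean standardised level of the 10 correlated best over the 15 libraries with MARS2, a mitochondrial methionyl-tRNA synthetase (Pearson r = 0.90), and with EEF1B2, a translation elongation factor subunit and itself a snoRNA host with a TOP start (r = 0.88). METTL17, TRIM27, CD2BP2 and NXT1 followed at 0.83 to 0.85. For single genes the most alike were ARPC5 for SNHG8 at 0.96, CDCA8 for SNHG16 at 0.91, IL27RA for SNHG7 at 0.91 and an unnamed gene for SNHG5 at 0.90. They were GON4L for GAS5 at 0.89, SRSF2 for SNHG1 at 0.86, LRMP for SNHG12 at 0.85, IFFO1 for EPB41L4A-AS1 at 0.80, CDR2 for SNHG15 at 0.79 and LIPA for SNHG6 at 0.78. These are the highest of 8981 values each over 15 points, and they carry no test.

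The snoRNAs that could be looked up had few counts. Of 34 snoRNAs listed for the 10 hosts, 8 were matched by identifier, and the highest count of any of these 8 in a library was 20. The others were not analysed here and may be counted under other identifiers. SNORA13, in an intron of EPB41L4A-AS1, was the 1 of the 8 that passed the filter, with 3 to 20 counts per library and a mean of 1.19 CPM against 26.8 CPM for its host. SNORD99 of SNHG12 had 3 to 19 counts per library, and SNORD1B of SNHG16 had 1 to 6. SNORD27 of SNHG1 had 6 counts in all, and SNORD79, SNORD29, SNORD30 and SNORD87 were at 0 in every library. The values described here are those counted to the host genes. In the annotation used for lengths, most snoRNAs in the span of these hosts lay inside an annotated host exon. This held for 6 of 7 in SNHG1, 4 of 4 in SNHG7 and 4 of 5 in SNHG12, but for 0 of 1 in EPB41L4A-AS1. Reads from such snoRNAs or from retained introns may thus be counted to a host. Their share of the host values was not tested.

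Further noncoding snoRNA hosts were also described as a list. Of 17 listed, 15 were tested, and 0 passed in any comparison. Elesclomol against PBS gave a median log2 fold change of -0.05 with 3 of 15 above 0, and the combination against elesclomol 0.31 with 13 of 15 above 0 and 6 with an unadjusted edgeR p under 0.05, against 12.2% of all genes. SNHG19 had 0.64 ± 0.17 there and SNHG25 0.76 ± 0.23 (edgeR adjusted p = 0.205 and 0.247), with no overlap between the groups. The combination against PBS gave 0.28 with 14 of 15 above 0, against 51.7% of all genes, and SNHG20 had 0.37 ± 0.12 (edgeR adjusted p = 0.278). This list was summarised only in the fit of all libraries, so its dependence on the GC-rich or single libraries was not examined.

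Genes that share a feature with the host genes, but encode proteins, had medians between -0.15 and 0.07 in the comparisons where the 10 host genes had -0.15, 0.23 and 0.27. The 23 protein-coding snoRNA hosts outside the ribosome had a median of 0.05 for elesclomol against PBS, 0.03 for the combination against elesclomol and -0.07 for the interaction. The 19 tested protein-coding TOP genes outside the ribosome, among them translation elongation and initiation factors, had 0.07, 0.07 and -0.03. The 8 core proteins of snoRNPs, the particles in which snoRNAs act, had 0.05, 0.03 and -0.15. The 9 tested assembly factors of snoRNPs had 0.01, 0.05 and -0.04, and the 16 tested factors of nonsense-mediated decay had 0.00, 0.01 and -0.03. Of all these lists 0 genes passed in any comparison. FBL, the methyltransferase of box C/D particles, had the smallest p of the core proteins for elesclomol against PBS, with a log2 fold change of 0.37 ± 0.20 (edgeR adjusted p = 0.698), a sign opposite to that of GAS5 and SNHG12. Whether the lists differ from the host genes was not tested.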

How the data were processed

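Ribosomal RNA was removed and a kit that marks the strand was used, per the labels' protocols. Reads were aligned with STAR 2.5.4b and counted with featureCounts 1.6.1 on GRCh37, per the submitters' processing notes. The deposited values are raw counts per Ensembl gene. Not given in the sources used here were the annotation release, how mouse reads were handled and the strand option, so opposite-strand genes and conserved mouse transcripts may add to the counts. Samples were grouped by title. Symbols, lengths and GC came from GENCODE 29 and start windows from RefSeq.

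Counts of 13085 genes (filterByExpr, minimum count 10) entered 1 model over 15 libraries and 5 groups in edgeR 4.0.16 under R 4.3.3, with TMM factors and the robust quasi-likelihood test. It had 10 residual degrees of freedom and a common biological coefficient of variation of 0.171. Unadjusted and adjusted p-values and the 95% intervals come from that fit. Tools for alternatives were DESeq2 1.42.0 and limma 3.58.1, with Python 3.11.15 for tables. All 10 genes are described. From other lists the genes that pass are named, otherwise up to 4 with the smallest p. The members and lists were chosen with earlier results of these data known. Of the comparisons made, only combination against bortezomib had positive correlations for all same-numbered libraries (0.118 to 0.655). The highest was that of bortezomib 1 and combination 1, both GC-rich. Differently numbered libraries also deviated together, up to 0.473 for combination 1 and delayed combination 2, likewise both GC-rich.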

Additional observations from a re-analysis of the deposited data

How the results depend on the processing

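For the 10 comparisons the count of host genes past the threshold was 0. It stayed at 0 under RLE factors, library sizes without mitochondrial genes, no filter on low counts, DESeq2, the host marker covariate and the correction for GC and length, as well as without each library in turn. The count was also 0 with the groups compared alone, a setting not run for any difference among the 5 groups. It also stayed at 0 without the 3 GC-rich libraries, and without these and elesclomol 1, a setting chosen after seeing the data. With limma voom it was 1 for the combination against PBS and 1 for the interaction, where it called 10.7% and 2.37% of all genes. With the replicate number as a replicate block the count was 0 in every comparison, as it was for bortezomib and combination alone, also added after seeing the data. Of 2350 single values under alternatives, 142 (6.04%) had the other sign, all in values that did not pass. In combination against elesclomol 0 of them did. Standard errors were 0.10 to 0.25 on the log2 scale, which limits what 3 libraries per group can show.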
